A study of Ovis aries with 20 samples.

Results

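A set of 10 genes of glutathione metabolism and of the NRF2 antioxidant response was followed through the prenatal trachea of sheep. They are GSR, GCLC, GCLM, GSS, GPX2, SLC7A11, NQO1, TXNRD1, HMOX1 and NFE2L2, 10 of the 24478 genes in the count tables, matched by symbol. All 10 passed the filter on low counts, which kept 20097 genes for testing. GSR was taken because earlier results of these data gave it a lower level in CF over the ages, and GCLC because of its level at birth. The other 8 were added by their known function. The values of GSR between genotypes and of GCLC at birth are therefore given here as descriptions, with no test. The rule describes GCLC as lower at birth, and the data bear this out only between genotypes: at birth it was lower in CF than in WT, while within WT it was higher at birth than at the earlier ages.

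RNA was sequenced from frozen tracheal tissue, labelled epithelial, of WT sheep (healthy donors in the labels) and of sheep with cystic fibrosis (CF donors), the disease caused by loss of the chloride channel CFTR. The ages were days 65, 80, 100, 120 and 147, the last of which is labelled birth. Each of the 10 groups of genotype and age held 2 samples, 20 in all, untreated as far as the labels say, and the CF allele, the breed and the sex are not stated in the labels. Library totals lay between 42372433 and 87651829 counts. Nothing in the labels says that the replicates are separate animals, and 1 identifier is shared by both WT samples of day 100 another by both CF samples of day 147, and a further one by WT day 65 replicate 2 and CF day 100 replicate 2, which differ in genotype and age. The p-values thus describe a spread among samples that may be partly technical.

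The tissue held more than epithelium. All 12 epithelial markers were detected in every library, with EPCAM at 58.3 to 305 CPM (counts-per-million of the TMM-scaled library size), and their summed level was 1782 to 5915 CPM in WT and 1009 to 3762 CPM in CF. Fibroblast and matrix markers summed to 4551 CPM or more in every library. RNA of another tissue stood out in 4 libraries: WT day 80 replicate 2 (thyroglobulin, TG, at 106018 CPM against a median of 0.627 CPM over the 20), CF day 65 replicate 2 (albumin, ALB, at 4683 CPM), CF day 80 replicate 1 (skeletal actin, ACTA1, at 5766 CPM) and WT day 65 replicate 2 (the thymic protease PRSS16 at 125 CPM). Calls of the 10 genes, and counts over the wider pathway, are given with and without these libraries where leaving them out ends a call.

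Glutathione is a tripeptide of glutamate, cysteine and glycine. SLC7A11 imports cystine, GCLC and GCLM form the ligase that makes the first bond, and GSS adds the glycine. GPX2, a peroxidase of epithelia, spends glutathione on peroxides, and GSR restores the oxidised form with NADPH. NFE2L2 encodes NRF2, the transcription factor that oxidants and electrophiles release from KEAP1, and the other 9 genes are among its well known targets in many tissues. NQO1 reduces quinones, TXNRD1 recharges thioredoxin, and HMOX1 cleaves heme. In the airway, glutathione is also secreted into the surface liquid, and CFTR can conduct it.

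The 10 genes spanned a wide range of levels. Per kilobase of summed exon length, the mean over the 20 libraries was highest for GPX2, at 33.8 ± 35.1 CPM per kb (SD, n = 20). TXNRD1 followed at 22.6 ± 3.91, GSR at 20.6 ± 19.6 and NFE2L2 at 11.6 ± 2.62. GCLC (9.05 ± 11.2) and GCLM (8.90 ± 1.33), the subunits of one enzyme, had means closer to each other than their spread. HMOX1 (6.41 ± 2.88), GSS (4.11 ± 1.14) and NQO1 (2.40 ± 1.87) came next, and SLC7A11 was near the limit of detection at 0.0336 ± 0.0342. The first 3 genes of this order lie within each other's spread, and so do GCLC, GCLM and HMOX1.

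They also differed in how far they varied. From the lowest to the highest library, GPX2 spanned 73.6-fold, GSR 15.0-fold, GCLC 13.8-fold and NQO1 9.86-fold. HMOX1 spanned 4.73-fold, GSS 2.50-fold, TXNRD1 2.19-fold, NFE2L2 2.06-fold and GCLM 2.05-fold. SLC7A11 ran from 0 to 120 counts per library, so its ratios are not meaningful. Without the 4 libraries with other tissue GSR spanned 5.21-fold and NQO1 5.48-fold, while GPX2 and GCLC stayed at 73.6-fold and 13.6-fold. The widest differences between libraries thus lay in these 4 of the 10 genes, and the regulator NFE2L2 and the ligase subunit GCLM were among the steadiest.

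**Figure D1:**
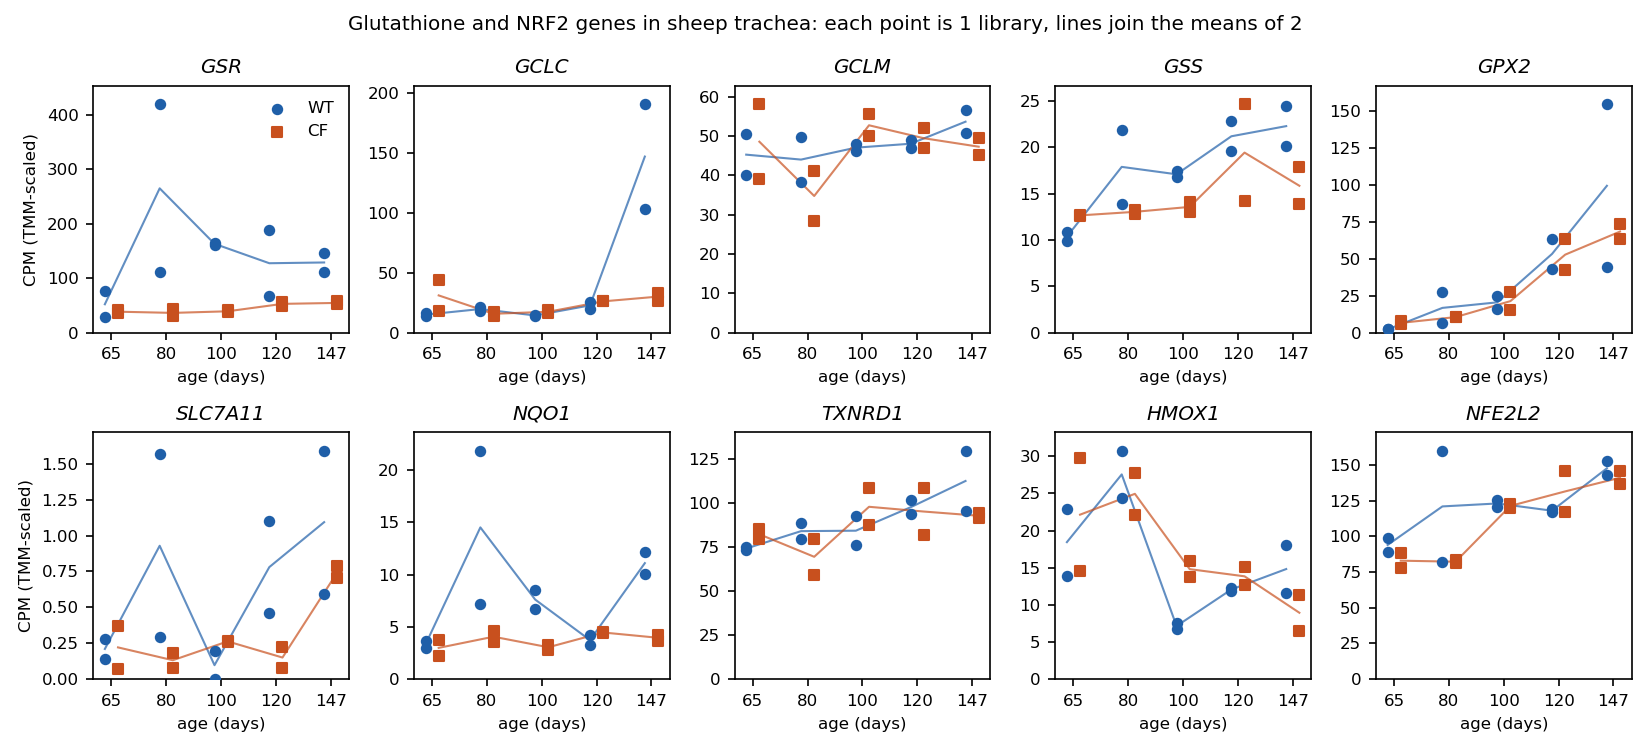
Level of each of the 10 genes in CPM (vertical axis, from 0, its own scale in each panel) against age in days, with WT as blue circles and CF as orange squares; each point is 1 library and lines join the means of 2. GSR lies lower in CF than in WT from day 80 on, GCLC is high in the 2 WT libraries at birth (191 and 103 CPM), and GPX2 climbs with age in both genotypes.

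GSR, glutathione reductase, lies on chromosome 26 at 25468333 to 25512521 on the minus strand, in the deposited coordinates (build not given in the sources used). The WT libraries gave 76.2 and 28.0 CPM (day 65), 111 and 420 (day 80), 165 and 162 (day 100), 188 and 66.7 (day 120), then 147 and 111 (birth). The CF libraries gave 36.2 and 40.7 CPM (day 65), 29.6 and 42.8 (day 80), 40.7 and 37.6 (day 100), 57.2 and 48.5 (day 120), then 57.4 and 51.8 (birth). The CF libraries stayed in a narrow band at every age, while WT libraries were both higher and far more scattered. The groups overlapped at day 65 and did not overlap at the 4 later ages, where both CF libraries lay below both WT libraries.

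Over all ages the mean level of GSR was 147 ± 108 CPM in WT against 44.2 ± 9.21 in CF (SD over 10 libraries each), with medians of 129 and 41.8 CPM. Of the 10 WT libraries 9 lay above the highest CF library at 57.4 CPM, the exception being WT day 65 replicate 2, the library that shares an identifier with a CF library. Without it the difference over the ages was -1.69 log2. The fitted difference over the mean of the ages was -1.58 ± 0.27 log2 (SE), 2.98-fold lower in CF, which is the value the gene was chosen for. By age it was -0.44 (day 65), -2.87 (day 80), -2.06 (day 100), -1.27 (day 120) and -1.24 (birth). The widest gap, at day 80, rested in part on the WT library with thyroid RNA, which held the highest GSR level of the 20. Without that library the difference over the ages was -1.32 log2, and without the 4 libraries with other tissue it was -1.40. In tissue RNA, fewer cells of a type that expresses a gene and less RNA of it per cell cannot be told apart.

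The 3 nearest tested genes on each side of GSR did not follow it. GTF2E2 differed by -0.14 ± 0.12 log2 between genotypes over the ages, UBXN8 by -0.24 ± 0.20 and PPP2CB by -0.04 ± 0.08. SMIM18 and 2 unnamed loci gave -0.60 to 0.00, and none of the 6 passed the edgeR test (lowest adjusted p = 0.703, UBXN8).

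GCLC, the catalytic subunit of glutamate-cysteine ligase, lies on chromosome 20 at 7077904 to 7122848 on the plus strand. In WT the paired values were 15.997 and 13.9 CPM (day 65), 17.9 and 21.4 (day 80), 14.002 and 14.6 (day 100), 25.8 and 19.6 (day 120), then 191 and 103 (birth). In CF the paired values were 18.4 and 43.7 CPM (day 65), 13.8 and 17.6 (day 80), 16.1 and 18.7 (day 100), 26.1 and 26.1 (day 120), then 33.4 and 26.7 (birth). The WT birth libraries stood above all 18 others, and the WT libraries before birth reached at most 25.8 CPM. Before birth both CF libraries lay above both WT libraries at days 65, 100 and 120, and below them at day 80. The fitted difference was 1.05 log2 at day 65 (95% interval 0.26 to 1.85, edgeR, adjusted p = 1.0), -0.33 at day 80, 0.28 at day 100 and 0.20 at day 120. The fitted difference of CF from WT was -2.29 ± 0.38 log2 at birth, and the change from day 65 to birth was 3.30 ± 0.40 log2 in WT and -0.05 ± 0.36 in CF. Both of these belong to the choice of the gene and carry no test.

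The starting point in CF was itself uneven. The highest CF library for GCLC, at 43.7 CPM, was the day 65 library with albumin RNA, and without the 4 libraries with other tissue the change in CF was 0.71 log2. The difference at birth was -2.29 log2 with these 4 libraries and without them. A secretory cell score was the mean log2 deviation of 6 markers from their average over the libraries. At birth this score was 3.99 and 4.02 in the WT libraries and 2.41 and 1.55 in the CF libraries. The summed level of the same markers did not separate the genotypes at birth. Its lowest value, 17255 CPM, belonged to WT replicate 1, the library with the highest GCLC, and its highest, 84852 CPM, to WT replicate 2. Both CF sums fell between these (replicate 1: 25447 CPM, replicate 2: 27193 CPM). In CF the score had risen from -1.42 and -1.27 at day 65, while the change of GCLC there was -0.05 ± 0.36 log2. The part of secretory cells in the GCLC difference was not tested. The neighbours of GCLC gave little to compare, with 5 of the 6 at a mean of 6.18 CPM or below in both genotypes. LRRC1, the 6th, was at 0.26 ± 0.28 log2 at birth (edgeR, adjusted p = 0.875).

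GCLM, the modifier subunit that GCLC pairs with, did not share its pattern. It ran from 38.2 CPM through a median of 48.5 to 56.6 in WT, and from 28.4 through 48.1 to 58.1 in CF. At birth the WT libraries were at 56.6 and 50.7 CPM and the CF libraries at 49.5 and 45.1. The genotypes were separate there but close, and the difference was -0.18 ± 0.24 log2 (95% interval -0.70 to 0.34, edgeR, adjusted p = 0.902). From day 65 to birth GCLM stood at 0.25 ± 0.24 log2 in WT (95% interval -0.27 to 0.76). The 3.30 log2 of GCLC there is a description and was not tested against it.

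GSS, glutathione synthetase, rose modestly in WT. It was at 9.89 and 10.8 CPM at day 65 and at 24.4 and 20.2 CPM at birth in WT, against 12.7 and 12.6, then 13.9 and 17.9 CPM, in CF. Both WT birth libraries lay above both at day 65, and in CF the 2 ages were also apart, by less. The change was 1.11 ± 0.29 log2 in WT (edgeR, adjusted p = 0.0353) and 0.33 ± 0.29 in CF (adjusted p = 0.673). The WT call was lost in 5 of 8 other settings, among them the fit without the 4 libraries with other tissue (adjusted p = 0.125), and in 10 of the 20 fits that leave out 1 library, with adjusted p up to 0.228 (without WT day 65 replicate 1). Between genotypes over the ages GSS stood at -0.22 ± 0.13 log2 (adjusted p = 0.564).

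SLC7A11, the cystine importer, had too few reads for a comparison. It held 0 to 120 counts per library in WT and 4 to 55 in CF, with means of 0.622 ± 0.588 CPM and 0.302 ± 0.253 CPM (SD over 10 libraries each). The library at 0 was WT day 100 replicate 1, where a count of 0 allows up to 3 counts, a limit that covers counting error only. The difference over the ages was -0.86 ± 0.56 log2 with an interval of -2.08 to 0.36, which spans both a large fall and a rise.

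GPX2, the epithelial glutathione peroxidase, had the largest change with age of the 10. WT levels were 2.10 and 2.18 CPM (day 65), 27.3 and 6.19 (day 80), 16.2 and 24.8 (day 100), 43.1 and 63.6 (day 120), then 44.2 and 155 (birth). CF levels were 7.54 and 5.62 CPM (day 65), 10.6 and 10.4 (day 80), 27.6 and 15.0 (day 100), 63.2 and 42.4 (day 120), then 63.1 and 73.8 (birth). The level climbed in both genotypes, and WT day 65 was the lowest group. From day 65 to birth GPX2 rose by 5.54 ± 0.76 log2 in WT (edgeR, adjusted p = 0.00138) and by 3.38 ± 0.68 log2 in CF (adjusted p = 0.0113).

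The WT rise of GPX2 passed in all 8 other settings and in all 20 fits that leave out 1 library. It was 4.10 log2 when a slope of expression on gene length, a property of each library, was a covariate. That slope was 0.245 and 0.164 in the WT day 65 libraries and 0.102 and -0.243 at birth. The CF rise did not pass without the 4 libraries with other tissue (3.18 log2, adjusted p = 0.0880), nor with the CF day 147 and WT day 100 pairs summed by their shared identifier (3.42 log2, adjusted p = 0.0911). It was also lost without CF day 65 replicate 1 (adjusted p = 0.0748), CF day 65 replicate 2 (0.143) or CF day 147 replicate 2 (0.0649). Between genotypes GPX2 stood at 0.09 ± 0.28 log2 over the ages (95% interval -0.51 to 0.69, adjusted p = 0.953).

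NQO1, the quinone reductase, came closest to the pattern of GSR. For WT the libraries read 3.68 and 2.95 CPM (day 65), 7.18 and 21.8 (day 80), 6.69 and 8.52 (day 100), 3.27 and 4.18 (day 120), then 10.04 and 12.1 (birth). For CF the libraries read 2.21 and 3.76 CPM (day 65), 4.58 and 3.53 (day 80), 3.30 and 2.79 (day 100), 4.36 and 4.55 (day 120), then 3.67 and 4.23 (birth). Both CF libraries lay below both WT libraries at 3 ages (days 80 and 100 and birth), above them at day 120, and overlapped them at day 65.

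The mean of NQO1 was 8.05 ± 5.74 CPM in WT against 3.70 ± 0.778 in CF (SD over 10 libraries each), and 6 of the 10 WT libraries lay above the highest CF library. The difference over the ages was -0.91 ± 0.21 log2 (95% interval -1.35 to -0.46), and it missed the threshold over all genes (edgeR, adjusted p = 0.0687). It stayed between -1.04 and -0.70 log2 over the fits that leave out 1 library, with adjusted p from 0.00715 to 0.199, and was -0.86 log2 (adjusted p = 0.0930) without the 4 libraries with other tissue. DESeq2 called it (adjusted p = 0.000526), as did the fit with the length slope (adjusted p = 0.0253). From day 65 to birth NQO1 rose by 1.74 ± 0.47 log2 in WT (edgeR, adjusted p = 0.0374) and stood at 0.40 ± 0.46 log2 in CF (adjusted p = 0.768). The WT call was lost in 3 of 8 other settings, without the 4 libraries (adjusted p = 0.0650), with library size alone (0.105) and with summed pairs (0.0727), and in 7 of the 20 fits that leave out 1 library, with adjusted p up to 0.203 (without WT day 65 replicate 2).

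**Figure D2:**
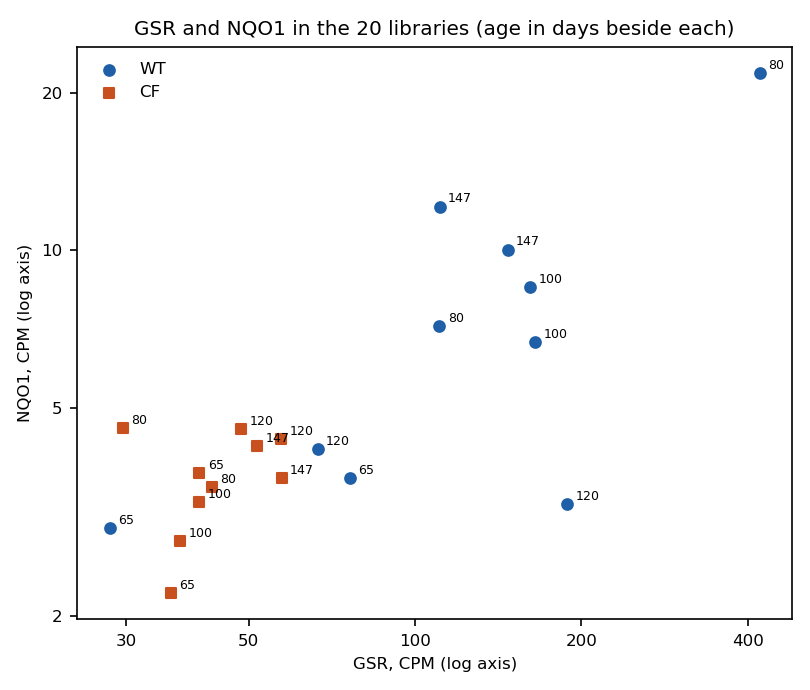
NQO1 (vertical) against GSR (horizontal), both in CPM on log axes, in the 20 libraries, with WT as blue circles, CF as orange squares and the age in days beside each point. The 10 CF libraries form one cluster at low values of both genes, and the WT libraries spread from that cluster to 420 CPM of GSR and 21.8 CPM of NQO1 at day 80.

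Over the 20 libraries, NQO1 was 7th of 12500 genes in likeness to GSR (Pearson r = 0.79 of log2 CPM), a description that includes the difference between genotypes. The 5 most alike were ARMT1 (r = 0.83), TMEM97 (0.83), TMEM181 (0.82), ALDH7A1 (0.82), an aldehyde dehydrogenase, and FICD (0.80), and the least alike were TMCO4 (-0.79), BOC (-0.79) and PRSS12 (-0.78). NFE2L2 was 300th (r = 0.52). Within the 10 WT libraries, GSR and NQO1 correlated at r = 0.72 (permutation p = 0.0191, adjusted p = 0.172 over the 90 relations computed) and rho = 0.48 (permutation p = 0.166). Without the libraries with the lowest and highest GSR, both of which held other tissue, r was 0.26, so the relation rests on them. Within CF it was r = 0.34 (permutation p = 0.344) and rho = 0.24 (permutation p = 0.514). Libraries of 1 genotype differ in age, which the members share.

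For GCLC the most alike were SLC8B1 (r = 0.84), ALAS1 (0.83), the first enzyme of heme synthesis, RFK (0.82), which makes flavin mononucleotide, PCK2 (0.82) and PRG4 (0.81). The least alike were RSRC2 (-0.85), PRMT9 (-0.83) and RBM39 (-0.83). These are descriptions over the 20 libraries, in which the WT birth libraries stood far above the rest in GCLC. Correlations of these genes without the WT birth libraries were not computed. Of the other members, TXNRD1 stood highest, at rank 140 (r = 0.63). GSR was at rank 2477 (r = 0.24 over both genotypes). Within WT the r of GSR and GCLC was 0.17 (permutation p = 0.592) and rho 0.32 (permutation p = 0.369). Within CF r was 0.63 (permutation p = 0.0516, adjusted p = 0.232) and rho 0.56 (permutation p = 0.0951), with r at 0.35 without the libraries farthest in GSR and 0.88 without those farthest in GCLC.

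TXNRD1, thioredoxin reductase, ran from 73.5 CPM through a median of 90.7 to 130 in WT, and from 59.4 through 86.4 to 109 in CF. Its highest library was WT day 147 replicate 1, the same that held the highest GCLC. The genotypes overlapped broadly, and the difference over the ages was -0.05 ± 0.10 log2, with an interval of -0.26 to 0.17 (edgeR, adjusted p = 0.922). From day 65 to birth it stood at 0.60 ± 0.22 log2 in WT (adjusted p = 0.107) and 0.17 ± 0.22 log2 in CF (adjusted p = 0.808).

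HMOX1, heme oxygenase 1, varied with age without climbing. Libraries of WT sheep held 13.9 and 23.0 CPM (day 65), 30.7 and 24.4 (day 80), 6.76 and 7.53 (day 100), 11.9 and 12.2 (day 120), then 18.01 and 11.6 (birth). Libraries of CF sheep held 14.6 and 29.7 CPM (day 65), 27.8 and 22.1 (day 80), 13.7 and 15.9 (day 100), 15.1 and 12.6 (day 120), then 6.505 and 11.4 (birth). Day 80 was high in both genotypes, the lowest WT group was day 100 and the lowest CF group was birth. It differed over the ages (edgeR F test on the mean of the genotypes, adjusted p = 0.0112), a call that was lost without the 4 libraries with other tissue, with summed pairs and with an epithelium score as a covariate. At day 100 both CF libraries lay above both WT libraries, by 1.05 ± 0.39 log2 (adjusted p = 0.262). Macrophages express HMOX1, and their 7 markers summed to 62.9 to 281 CPM in WT and 70.4 to 179 CPM in CF. At day 100 that sum was 67.2 and 62.9 CPM in WT against 143 and 114 CPM in CF. Fibroblast and matrix markers at that age summed to 6533 and 4551 CPM in WT against 37825 and 35923 CPM in CF, and endothelial markers to 131 and 106 CPM against 364 and 549 CPM. The part of these cells in the HMOX1 difference was not tested.

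NFE2L2, the gene of NRF2 itself, ran from 82.1 CPM through a median of 120 to 160 in WT, and from 77.7 through 119 to 146 in CF. The highest value was again the WT day 80 library with thyroid RNA. The genotypes overlapped at every age but day 65, and the difference over the ages was -0.13 ± 0.11 log2 (95% interval -0.38 to 0.11, edgeR, adjusted p = 0.713). From day 65 to birth NFE2L2 stood at 0.65 ± 0.25 log2 in WT (adjusted p = 0.119) and 0.77 ± 0.25 log2 in CF (adjusted p = 0.109). These are RNA levels, and NRF2 is controlled mainly by the stability of its protein.

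Between genotypes over the mean of the ages, none of the 9 members other than GSR passed the edgeR test (1 at an unadjusted p under 0.05, NQO1; DESeq2 called NQO1), while 154 of all 20097 genes, 0.766%, did. GSR is left out of that count because it was chosen in this contrast. Leaving out GSR and GCLC, which were chosen for low values, and SLC7A11, which has too few reads, the median difference of the other 7 was -0.05 log2 against 0.01 over all tested genes, and 5 of the 7 were negative. At day 80 all 7 were negative, with a median of -0.46 against -0.07, and at birth again all 7, with a median of -0.49 against -0.06. At day 65 it was 2 of 7, at day 100 3 and at day 120 3. At day 80 the highest levels of GSR, NQO1 and NFE2L2 came from the library with thyroid RNA, and the lowest of GCLC and TXNRD1 from that with muscle RNA.

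GSR is left out at single ages too. The edgeR test called none of the 9 others at day 65, where 0.00995% of all genes passed. Of these, 2 were at an unadjusted p under 0.05 (edgeR), and DESeq2 called 0. At day 80 edgeR called none of the 9, against 0% of all genes. There NQO1 and NFE2L2 were at an unadjusted p under 0.05 (edgeR), and DESeq2 called NQO1. At day 120 DESeq2 called 0, and edgeR called none of the 9 (0 unadjusted), also against 0% of all genes. At day 100 it again called none of the 9 (NQO1 and HMOX1 unadjusted; DESeq2 called NQO1), against 1.46% of all genes. At birth, leaving out also GCLC, which was chosen there, edgeR called none of the remaining members, against 0.0945% of all genes. NQO1 stood at -1.49 ± 0.46 log2 at birth (edgeR, adjusted p = 0.354), and DESeq2 called it (adjusted p = 0.0479).

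**Figure D3:**
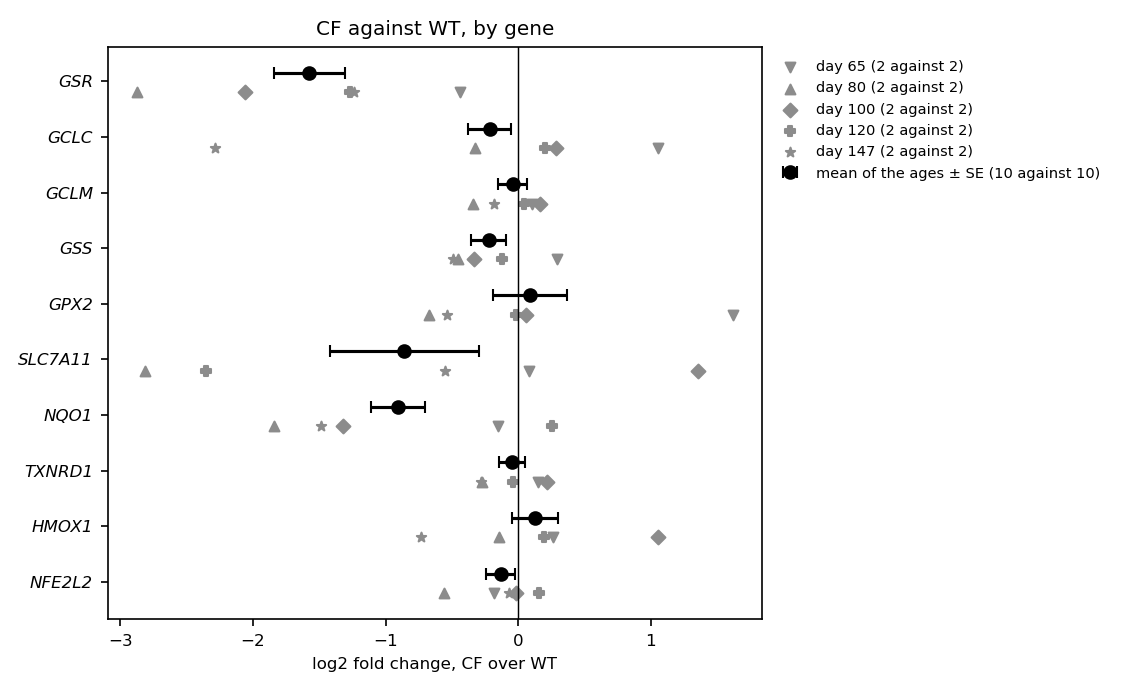
Fitted log2 fold change of CF over WT for each of the 10 genes (horizontal axis, 0 marked): black points are the mean of the 5 ages ± SE (10 against 10 libraries), grey symbols are the single ages (2 against 2). GSR at -1.58 and NQO1 at -0.91 stand farthest from 0 over the ages, SLC7A11 has the widest error, and GCLC departs from 0 mainly at birth (-2.29).

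Leaving out GCLC, chosen for its level at birth, GPX2, GSS and NQO1 passed between day 65 and birth in WT (edgeR). All were higher at birth. In that comparison 8.23% of all genes passed, and the median of the 7 members without GSR, GCLC and SLC7A11 was 0.65 log2 against -0.02. In CF GPX2 alone passed, against 5.49% of all genes, with a median of those 7 of 0.33 against -0.01. Without the 4 libraries with other tissue the calls of GSS and NQO1 in WT (1.17 and 1.59 log2) and of GPX2 in CF (3.18 log2) were lost.

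Whether the changes from day 65 to birth differed between genotypes was tested directly. Leaving out GCLC, no member passed, and 0.00498% of all genes did. GPX2 was at an unadjusted p under 0.05 (edgeR), and DESeq2 called none. GCLC differed by -3.34 ± 0.53 log2, as a description, and GPX2 by -2.16 ± 0.90 log2 (95% interval -4.09 to -0.22, edgeR, adjusted p = 0.914). The test that the genotype difference is equal at all ages, again without GCLC, also called no member, against 0.0697% of all genes. NQO1 was at an unadjusted p under 0.05 (edgeR), and DESeq2 called none. For NQO1 the adjusted p was 0.576.

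Taking both genotypes together, birth stood above the 4 earlier ages for 9 of the 10 genes, HMOX1 being the exception. Leaving out GCLC (1.77 log2, a description), the edgeR test passed GPX2 alone (2.43 ± 0.31 log2, adjusted p = 0.000329), where 11.5% of all genes passed. NFE2L2 stood at 0.42 ± 0.14 log2 (adjusted p = 0.0643). Any difference over the 5 ages, again without GCLC, was called for GPX2 (edgeR F test, adjusted p = 0.000377) and HMOX1, against 17.9% of all genes.

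**Figure D4:**
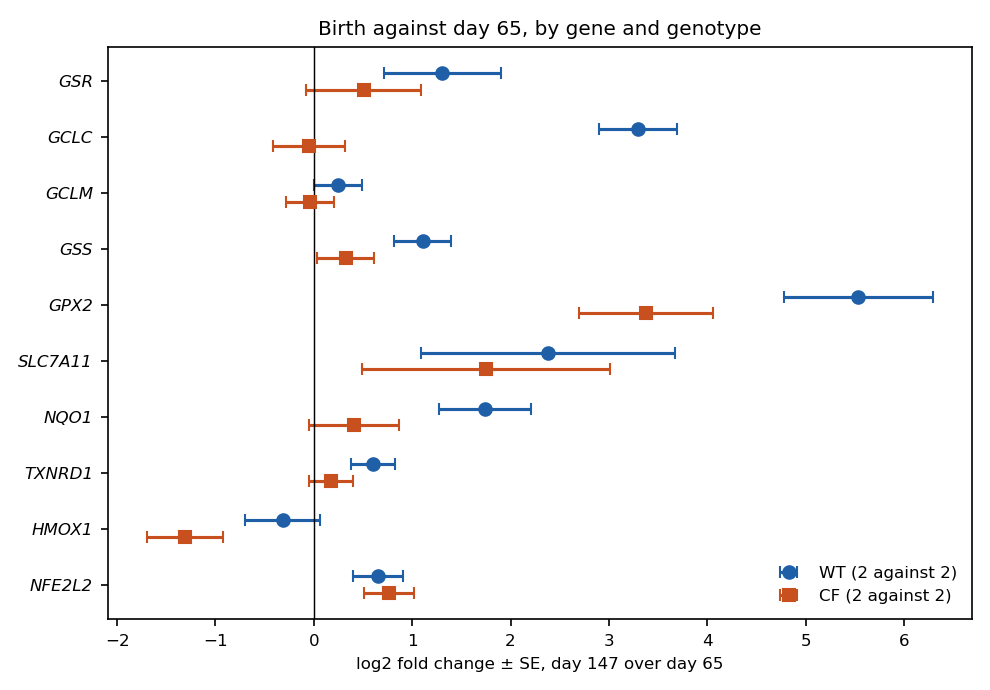
Fitted log2 fold change ± SE of birth (day 147) over day 65 (horizontal axis) for each of the 10 genes, with WT as blue circles and CF as orange squares (2 against 2 libraries each). GPX2 lies far to the right in both genotypes, GCLC in WT only (3.30 against -0.05, a description), and HMOX1 lies left of 0.

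Among pairs of members within a genotype, 2 of the 90 relations passed by Pearson's r and 4 by Spearman's rho. In WT, GSS and GPX2 correlated at r = 0.91 (permutation p = 0.00036, adjusted p = 0.0162) and rho = 0.88 (permutation p = 0.00161, adjusted p = 0.0497). Without the 2 WT day 65 libraries r was 0.72. In CF the same pair gave r = 0.70 (permutation p = 0.00279, adjusted p = 0.0587) and rho = 0.92 (permutation p = 0.00053, adjusted p = 0.0477). There r was 0.89 without the 2 libraries farthest in GSS and 0.64 without those farthest in GPX2. In WT, GCLC and TXNRD1 gave r = 0.81 (permutation p = 0.00391, adjusted p = 0.0587) and rho = 0.87 (permutation p = 0.00221, adjusted p = 0.0497). For this pair r was 0.75 without the WT birth libraries and 0.50 without the 2 libraries farthest in TXNRD1. In CF, HMOX1 and NFE2L2 ran opposite, at r = -0.85 (permutation p = 0.00036, adjusted p = 0.0162) and rho = -0.87 (permutation p = 0.0022, adjusted p = 0.0497). Their r was -0.82 without the 2 libraries farthest in HMOX1 and -0.77 without those farthest in NFE2L2. In WT this pair gave r = -0.29 (permutation p = 0.414). Age is shared by both members of a pair, and its part was not tested. The permutations treated the 10 libraries of a genotype as exchangeable, although each age gave 2 of them. The p-values of GCLC in WT include the birth libraries, for whose level it was chosen.

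The other genes of these pathways came from 9 lists chosen by function, with 149 genes besides the 10, of which 134 were tested. The lists were made with earlier results of these data known, so their shares of called genes are descriptions. Between genotypes over the ages 3 of them passed, 2.24% against 0.766% of all genes, all higher in CF, so in the direction opposite to GSR. DESeq2 called 5. GPX7, a peroxidase of the endoplasmic reticulum, was at 30.6 to 137 CPM in WT and 50.5 to 253 CPM in CF (1.13 ± 0.17 log2, edgeR, adjusted p = 0.00914). GSTCD, a protein with a glutathione transferase-like domain, was at 4.33 to 15.8 CPM in WT and 15.5 to 28.0 CPM in CF (1.17 ± 0.18 log2, adjusted p = 0.0112). LPO, lactoperoxidase, the third, was at 1.86 ± 0.33 log2 (adjusted p = 0.0257), with means of 822 CPM in WT and 1131 CPM in CF. From day 65 to birth LPO rose by 7.27 ± 0.95 log2 in WT and by 3.65 ± 0.80 log2 in CF. Its mean over the ages thus need not hold at each age, although the test that these changes differ did not call it (edgeR). All 3 calls were lost with the pairs of a shared identifier summed, and GSTCD also without the 4 libraries with other tissue. GPX7 and GSTCD passed in all 20 fits that leave out 1 library, LPO in 6 of them (adjusted p up to 0.0828).

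None of the 16 tested genes of glutathione synthesis and breakdown passed (edgeR), and 14 of them were negative, with a median of -0.15 log2. Of 23 genes of glutathione reduction and use 2 passed, GPX7 and GSTCD, both higher in CF, while 18 were negative and the median was -0.14. At day 100 all 16 genes of synthesis and breakdown were negative, with a median of -0.29 log2 against 0.12 over all genes, and none passed (edgeR). The 23 of reduction and use had a median of -0.52 there, 17 were negative and 1 passed, GPX7. At day 65 these 2 lists had medians of 0.22 and 0.34 log2, with 4 of 16 and 3 of 23 negative. Their medians were -0.39 and -0.04 at day 80, -0.04 and 0.07 at day 120, and -0.26 and -0.47 at birth. The median over the 134 was -0.14 log2 against 0.01 over all genes for the mean of the ages. At day 65 it was 0.21 against -0.004. At day 100, GPX7 (2.10 ± 0.38 log2, adjusted p = 0.0179) and MTHFD2, a mitochondrial folate enzyme (1.13 ± 0.21, adjusted p = 0.0192), were higher in CF. They were 2 of the 134, 1.49% against 1.46% of all genes, and of the 294 called among all genes 282 were higher in CF. Both calls were lost with summed pairs (adjusted p = 0.394 and 0.360), and that of MTHFD2 also without the 4 libraries with other tissue (0.0552). The lower sums of fibroblast and endothelial markers in WT at day 100, given with HMOX1, went with these differences, and their part was not tested.

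**Figure D5:**
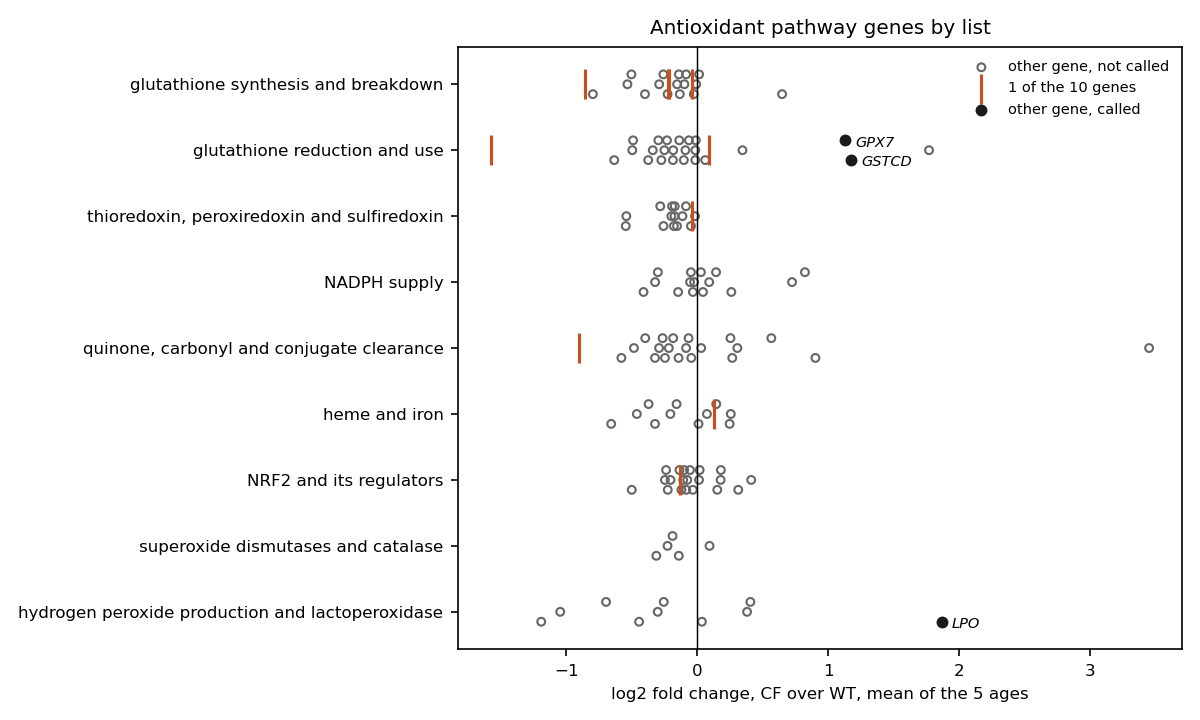
Fitted log2 fold change of CF over WT over the mean of the ages (horizontal axis) for the tested genes of the 9 lists, 1 row per list: open circles did not pass, filled circles passed at an adjusted p under 0.05, and orange bars are the 10 genes. GSR is the leftmost bar, and the 3 filled circles (GPX7, GSTCD and LPO) lie right of 0.

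With age, most of the called genes of the wider pathway were higher at birth in WT. From day 65 to birth 21 of the 134 passed, 15.7% against 8.23% of all genes, 19 higher and 2 lower. Of the 1654 called among all genes 743 were higher. The 134 were listed with earlier results of these data known, so this share is a description. Cell markers moved too: the secretory score went from -0.89 and -1.69 in the WT day 65 libraries to 3.99 and 4.02 at birth, and the multiciliated score from -1.57 and -0.99 to 0.14 and 1.26. Between the same ages in CF the secretory score went from -1.42 and -1.27 to 2.41 and 1.55. The multiciliated score in CF went from -0.57 and -0.97 to 0.40 and 0.36. The part of these cells in the changes was not tested. Among those that rose were the glutamine carrier SLC1A5 (1.31 ± 0.32 log2, edgeR, adjusted p = 0.0272), the cysteine-making enzyme CTH (1.95 ± 0.47, adjusted p = 0.0247), sulfiredoxin SRXN1 (1.54 ± 0.32, adjusted p = 0.0122), PRDX6 (2.62 ± 0.57, adjusted p = 0.0150) and the NRF2 target OSGIN1 (4.07 ± 0.80, adjusted p = 0.00956). TALDO1 of the pentose phosphate pathway (1.96 ± 0.37), ALDH1A1 (2.94 ± 0.43) and the superoxide dismutases SOD1 (1.71 ± 0.37) and SOD2 (1.54 ± 0.42) passed too. Of the 21 calls, 8 held without the 4 libraries with other tissue, 11 with summed pairs and 5 in all 8 other settings, among them PRDX6, OSGIN1, ALDH1A1 and BACH2. Without the 4 libraries the calls of CTH (adjusted p = 0.0551), SRXN1 (0.0862), TALDO1 (0.0835), SOD1 (0.117) and SOD2 (0.213) were lost. SLC1A5 was lost in 3 of the 8 settings, CTH in 3 and SOD2 in 4. The repressor BACH2, which competes with NRF2 for its sites, fell by 2.78 ± 0.39 log2 (adjusted p = 0.00148), as did PALB2, by 0.98 ± 0.27, a call lost in 5 of the 8 settings.

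SRXN1, PRDX6, OSGIN1 and SOD1 had their highest level of the 20 libraries in WT day 147 replicate 2, which also held the highest GPX2. SRXN1 was at 20.4 and 19.8 CPM at day 65 and at 39.6 and 77.2 at birth. OSGIN1 was at 0.634 and 1.02, then 5.35 and 22.5 CPM. This library had the lowest length slope of the 20 (-0.243), and the part of that property was not tested. Without it 4 of the 134 passed, and without either WT day 65 library 3.

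In CF 6 of the 134 passed from day 65 to birth, 4.48% against 5.49% of all genes, 4 higher and 2 lower. SLC1A5 rose by 1.52 ± 0.33 log2 (edgeR, adjusted p = 0.0157), OPLAH, which recovers glutamate from 5-oxoproline, by 0.71 ± 0.19 (adjusted p = 0.0437) and SESN2, a sestrin, by 1.14 ± 0.27 (adjusted p = 0.0283). BACH2 fell by 1.84 ± 0.38 log2 (adjusted p = 0.0123) and the neutral amino acid carrier SLC1A4 by 1.39 ± 0.35 (adjusted p = 0.0366). None of the 134 passed the test that the changes differ between genotypes (edgeR, 12 unadjusted). All 6 calls in CF were lost with summed pairs. Without the 4 libraries with other tissue 2 of the 6 held, SLC1A5 and LPO, and OPLAH (adjusted p = 0.325), SESN2 (0.160), BACH2 (0.0753) and SLC1A4 (0.0693) did not pass. Leaving out either CF day 147 library or CF day 65 replicate 2 left 0 of the 134 in CF, and leaving out CF day 65 replicate 1 left 1.

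BACH2 was lower at birth than at day 65 in both genotypes. In WT it went from 28.0 and 25.5 CPM at day 65 to 4.88 and 2.87 at birth, and in CF from 15.5 and 15.7 to 4.87 and 3.85. In each genotype both birth libraries lay below both at day 65. The WT fall passed in all 8 other settings and all 20 fits without 1 library, while the CF call was lost with summed pairs (adjusted p = 0.155) and without the 4 libraries (0.0753). The difference between the 2 changes was 0.95 ± 0.52 log2 (edgeR, adjusted p = 0.914).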

How the data were processed

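The authors deposited raw whole-number counts of each gene, with 1 table per genotype. STAR 2.6 for alignment and featureCounts 1.6.3 (Subread) for counting are named in the submitters' processing notes. Build, annotation, strand setting and read layout are not given in the sources used. Of the values from 1 to 20, 70.7% to 85.3% per library were even, so counts may exceed independent molecules. Libraries were grouped by their titles. No replicate was a copy of another (chi-square per gene 37.8 to 1685). Per the file headers the tables hold gene positions and exon lengths. Of 24478 genes, 8432 have an identifier for a symbol, and 501 were named from the RefSeq table of ARS-UI_Ramb_v3.0.

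Tests used edgeR 4.0.16 in R 4.3.3 with limma 3.58.1 (filterByExpr, TMM, robust quasi-likelihood fit, 1 coefficient per group, all 20 samples), checked on simulated data. Benjamini-Hochberg adjustment ran over 20097 genes, with a threshold of 0.05. The SE is the log2 fold change over the root of F, and 95% intervals use the quasi-likelihood degrees of freedom. Correlations, over log2 CPM (prior count 2), had 100000 permutations. The named genes are the 10, up to 4 called genes per list, and the nearest and most alike genes of GSR and GCLC. BACH2, SRXN1 and OSGIN1 values by library were chosen after their values were seen. The members and lists were chosen with earlier results of these data known. Alternatives were DESeq2 1.42.0, library size alone, no filter, a replicate block, summed pairs, 4 libraries left out, length slope, epithelium score and each library left out.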

Additional observations from a re-analysis of the deposited data

Results flagged for a closer look

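Within a genotype, 6 of 20 sets of 10 libraries (10 genes, 2 genotypes) had a library that stood apart by Dixon's criterion (the gap to the next library over the whole range). For normally distributed values chance marks about 1 in 20 such sets. Here CPM were used and libraries of different ages were pooled in each set, so that rate need not hold. In WT, GSR was at 420 CPM in day 80 replicate 2 with the next library at 188, and NQO1 at 21.8 CPM in the same library with the next at 12.1. That library also held thyroglobulin RNA at 106018 CPM, whose part was not tested. In WT day 147 replicate 1, GCLC was at 191 CPM (next 103) and TXNRD1 at 130 CPM (next 102). GPX2 was at 155 CPM in WT day 147 replicate 2 (next 63.6). In CF, GSS was at 24.7 CPM in day 120 replicate 1 (next 17.9).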

How the results depend on the processing

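Of the members, the counts called at days 65 and 120 were 0 in all settings. DESeq2 called 2 over the mean of the ages, 2 at day 80, 2 at day 100, 2 at birth, 3 for CF from day 65 to birth, 1 for the difference of these changes, 1 for unequal genotype differences, 4 for birth against earlier ages and 6 for any age. With the length slope the counts were 2 (mean of the ages), 1 (day 100), 3 (CF development), 1 (difference of changes), 1 (unequal differences), 4 (birth against earlier ages) and 7 (any age). With pairs of a shared identifier summed they were 0 (mean of the ages), 0 (birth), 2 (WT development) and 0 (CF development), and without the 4 libraries with other tissue 0, 0, 2 and 0, with 4 for birth against earlier ages. Library size alone gave 0 at birth, 2 for WT and 2 for CF development, and no filter gave 0 at birth. Leaving out 1 library at a time gave 0 to 2 over the mean of the ages, 0 to 3 at day 80, 0 to 1 at day 100, 0 to 1 at birth, 2 to 5 for WT and 0 to 2 for CF development, 0 to 1 for their difference, 0 to 1 for unequal differences, 2 to 5 for birth against earlier ages and 3 to 6 for any age. These counts include GSR between genotypes and GCLC at birth, whose values chose them, so they are no test of these 2 genes. The number of all genes called in each setting is not given beside the counts, so a higher count is not a stronger result. Leaving out 1 library moved the log2 difference of GSR over the ages between -1.72 and -1.32. At birth the difference of GCLC was -2.23 log2 with library size alone and -2.29 with summed pairs, as a description.

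Of the other 134 pathway genes, DESeq2 called 5 over the mean of the ages, 43 for WT and 12 for CF development and 33 for birth against earlier ages. Summed pairs gave 0, 11, 0 and 6, and the length slope 6, 32, 26 and 52. Without the 4 libraries it was 9 for WT and 3 for CF development, and with the epithelium score 10 for CF. Leaving out 1 library gave 2 to 4, 3 to 37, 0 to 11 and 7 to 31. The number of all genes called in each setting is not given beside these counts either, so a higher count is not a stronger result. The cause of these shifts was not tested.

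Signs that turned belonged to members that were not called. Over the mean of the ages GCLM was 0.030 and TXNRD1 0.014 with library size alone, and GPX2 -0.010 without the 4 libraries. For WT development GCLM was -0.083 with library size alone and HMOX1 0.088 without the 4 libraries. For CF development GCLC was 0.71 without the 4 libraries, 0.10 with the length slope and 0.076 with the epithelium score, GCLM was 0.28 without the 4 libraries and TXNRD1 -0.046 with library size alone. At day 100 GCLC was -0.018 with the length slope. Leaving out 1 library at a time gave, over the mean of the ages, GCLM -0.12 to 0.0083, GPX2 -0.051 to 0.36, SLC7A11 -1.18 to 0.26 and TXNRD1 -0.11 to 0.0029. It gave GSR -0.99 to 0.46 and NQO1 -0.58 to 0.18 at day 65, GCLC -0.0066 to 0.41 at day 120, HMOX1 -0.67 to 0.086 for WT development, and GCLC -0.54 to 0.71 and GCLM -0.29 to 0.28 for CF development. Library size alone moved the median of all genes by -0.34 in WT and -0.22 in CF development, 0.20 at day 100, 0.12 for the difference of changes and -0.11 for birth against earlier ages.

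Replicate numbers did not pair the samples: differences between replicates correlated at -0.59 to 0.73 between groups, with a median of 0.02, and 12 of 45 pairs of groups were above 0.1. With the replicate block, 0 members were called at birth, 3 for birth against earlier ages, and the same numbers as without it in the other comparisons. Depth limits SLC7A11, at 0 to 120 counts, and 2 samples a group limit every comparison at 1 age.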
